A study of Mus musculus with 2 samples.

Results

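Glycosyltransferase genes, which encode the enzymes that build the sugar chains of glycoproteins and glycolipids, were examined for peaks of Gata1, a DNA-binding factor needed for the making of red cells. The 90 genes were chosen by name alone, as all protein-coding genes of the GRCm38.p6 (mm10) RefSeq table whose symbols begin with St3gal, St6gal, St8sia, B3gal, B4gal, B3gnt, Fut and a digit, Gcnt, Galnt or Mgat, out of 21792 protein-coding genes placed on the chromosomes. The group as such was selected on its counts of Gata1 peaks in this list, so those counts are given as a description. The cells came from mouse embryonic stem cells grown as embryoid bodies over 5 days of blood differentiation. They were sorted for both a Runx1-ires-GFP and a Gata1::mCherry reporter, and the submitters call them primitive erythroid, the earliest red cell lineage. Chromatin immunoprecipitation and sequencing (ChIP-seq) was represented by 1 Gata1 library, made from cells of several sorts that were pooled, and 1 input library of the same kind of cells, for which too few cells were at hand for an IgG ChIP. The Gata1 library gave a list of 4135 peak intervals, each 400 bp wide and without a score, and no list of the input was analysed here. The single library allows no estimate of the spread between cultures and no test, the read depth is unknown, and a gene without a peak is only a gene at which none was called.

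Sugar chains are built stepwise in the endoplasmic reticulum and the Golgi apparatus, each enzyme adding a given sugar in a given linkage to a given acceptor. Mucin-type O-glycans are started by the Galnt enzymes, which add N-acetylgalactosamine to serine or threonine. They are extended by galactosyl- and N-acetylglucosaminyltransferases and are often closed by sialic acid. N-glycans are branched by the Mgat enzymes, and extended and capped by enzymes of the same families. Red cells carry dense sialylated O-glycans on glycophorins and blood group structures on band 3 and on glycolipids, which makes the enzymes of this group of interest in erythroid cells.

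Gata1 peaks lay near 26 of the 90 genes, counting a peak when its midpoint fell inside the gene or at most 10 kb beyond one of its ends. That is 28.9% of the genes (95% Wilson interval 20.5 to 39.0%, for the counting of genes only), beside 16.6% of all 21792 protein-coding genes. The genes were longer than most: their median length was 43.1 kb, against 17.2 kb over all protein-coding genes. Their windows together covered 10.7 Mb and held 40 peaks, or 3.73 peaks per Mb, against 2.55 per Mb in the windows of all protein-coding genes. Among genes under 20 kb, 8 of 30 members (26.7%) had a peak, beside 12.5% of all protein-coding genes of that length. Between 20 and 100 kb it was 10 of 39 (25.6%) beside 19.3%, and above 100 kb it was 8 of 21 (38.1%) beside 28.1%. No peak was shared by 2 members, and 18 of the 26 genes had 1 peak, 3 had 2, 4 had 3 and 1 had 4. So 8 of the 26 had 2 or more and 5 had 3 or more. Over all protein-coding genes, 678 of the 3611 with a peak had 2 or more and 145 had 3 or more, without regard to gene length.

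The counts by subfamily are to be read beside the 16.6% of all protein-coding genes. Of the 20 sialyltransferase genes, which encode the enzymes that add sialic acid, 10 (50%) had a peak. Of the 7 B4galt genes, which encode galactosyltransferases, 5 (71.4%) did. The count was 3 of 19 (15.8%) for Galnt, close to the share of all genes, and 1 of 11 (9.09%) for Mgat, and none of 5 B3galt, 4 B4galnt and 2 St6gal genes did. The windows of the B4galt genes held 22.4 peaks per Mb, or 14.0 without the 3 of their 8 peaks that lay inside other protein-coding genes. Those of the Fut genes held 4.28, or 1.43 without 2 such peaks. Those of the St3gal genes held 12.6, or 11.1 without 1 such peak. Those of the B3galnt genes held 18.2, from 2 peaks of 1 gene in 0.11 Mb. Those of the Galnt genes held 1.23 and those of the Mgat genes 0.661. Each subfamily is small, and the Wilson intervals of their shares were wide (35.9 to 91.8% for B4galt, 30.0 to 90.3% for St3gal and for St6galnac, 5.52 to 37.6% for Galnt and 1.62 to 37.7% for Mgat). For the subfamilies with no peak their upper limits were 43.4% (B3galt), 49.0% (B4galnt) and 65.8% (St6gal). The intervals of Galnt, Mgat, St8sia, B3galnt, B3gnt, Fut, Gcnt and the subfamilies with no peak all include the 16.6% of all genes. Because the group was selected on its counts, the intervals are no test of any subfamily against that share.

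**Figure D1:**
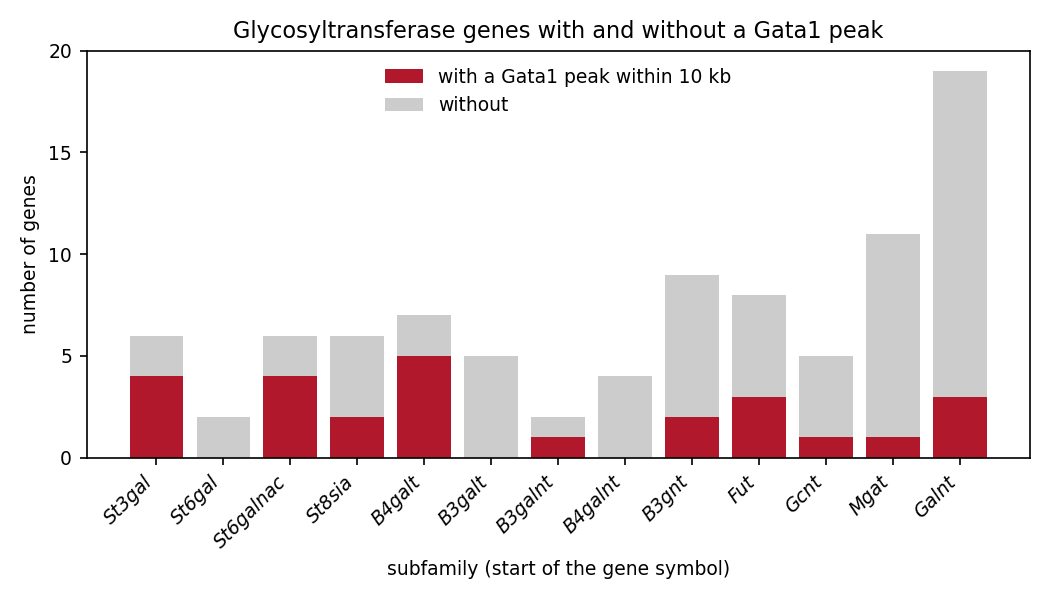
Number of glycosyltransferase genes (y axis) in each subfamily (x axis), with the genes that had a Gata1 peak (midpoint inside the gene or at most 10 kb away) in red and the others in grey. The red part is more than the grey in St3gal (4 of 6), St6galnac (4 of 6) and B4galt (5 of 7).

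At 3 genes a peak covered the annotated start itself, and the sequence there could be read from the RefSeq promoter table. B3galnt1 encodes the globoside synthase that makes the P antigen of the red cell surface. It lies on the minus strand at chr3:69573919-69598960, and its peak at chr3:69598764-69599163 had its midpoint 3 bp before the start. B3gnt5, at chr16:19760192-19772760 on the plus strand, encodes the enzyme that starts the lacto-series glycolipids, and its only peak (chr16:19760090-19760489) had its midpoint 55 bp after the annotated start. That start lies inside the gene span, and the midpoint was 0.097 kb from the lower-coordinate end of the gene. B4galt3, at chr1:171270328-171276895 on the plus strand, encodes a galactosyltransferase that makes the N-acetyllactosamine unit, and its peak at chr1:171270176-171270575 had its midpoint 47 bp after the start. The part of each of these peaks that lies before the gene and within the promoter window is given from RefSeq (GRCm38.p6), 5′ to 3′ on the strand of the gene, because it is the member sequence that a peak covers. The letters GATA, the core of the Gata1 recognition site, are in capitals. The stretches are chr3:69598961-69599163 for B3galnt1, chr16:19760090-19760191 for B3gnt5 and chr1:171270176-171270327 for B4galt3.
B3galnt1: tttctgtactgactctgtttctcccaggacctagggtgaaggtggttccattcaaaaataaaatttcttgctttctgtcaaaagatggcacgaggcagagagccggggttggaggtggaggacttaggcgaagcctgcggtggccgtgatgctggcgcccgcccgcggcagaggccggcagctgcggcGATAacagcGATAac
B3gnt5: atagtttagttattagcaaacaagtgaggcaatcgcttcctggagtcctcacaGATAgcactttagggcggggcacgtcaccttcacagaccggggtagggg
B4galt3: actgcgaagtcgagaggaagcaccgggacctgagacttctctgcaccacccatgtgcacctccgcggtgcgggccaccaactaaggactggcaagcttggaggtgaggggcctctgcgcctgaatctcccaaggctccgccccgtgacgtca

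The stretch at B3galnt1 held GATA at 2 places, beginning 15 and 6 bases before the start, and that at B3gnt5 held it at 1 place, 91 bases before the start. For B3gnt5 the bases are counted from its annotated start inside the gene span, not from the end of the stretch shown. In the B4galt3 stretch the letters were not found on either strand, and the promoter window held them once further on, from 38 bases after the start and still within the peak. The longer form AGATAA or TGATAA was found in none of the 3 stretches. In the window of B3gnt5 it was found as TGATAA from 216 bases before the same annotated start of B3gnt5, upstream of the peak interval. CACCC, the core letters bound by Klf1-type factors, was found on either strand at 1 place in the stretch of B3galnt1 and at 1 in that of B4galt3. These matches are a description of letters and not of sites.

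Promoter windows of 300 bases, from 250 before to 50 after a start, were read for 67 of the 90 genes, which had 93 windows because some genes have several starts. AGATAA or TGATAA on either strand was in 16 of the 93 windows (17.2%), beside 18.6% of all 32851 windows in the table. Those windows belong to 27025 genes, noncoding ones among them, whereas the members are all protein-coding. GATA, which is part of the longer form, was in 54.8% beside 57.9%, and CACCC in 66.7% beside 57.5%. Of the 21 windows of members with a peak within 10 kb, 2 (9.52%) held AGATAA or TGATAA, 8 (38.1%) held GATA and 17 (81.0%) held CACCC. Of the 541 windows in the table that a Gata1 peak overlapped, 179 (33.1%) held AGATAA or TGATAA, 360 (66.5%) GATA and 343 (63.4%) CACCC. The 21 and the 541 windows are unlike sets, because a peak within 10 kb of a gene need not overlap its window. A peak overlapped the windows of 4 members, with the last, St3gal5, touched over 12 bases only.

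Among the sialyltransferases that join sialic acid to galactose, St3gal1, St3gal2, St3gal3 and St3gal5 had peaks. St3gal1 and St3gal2 encode the enzymes that sialylate the simplest galactose-bearing O-glycan, the kind carried by glycophorins, and each had 3 peaks, all of them inside the gene. In St3gal1 (chr15:67102875-67176946) they were at chr15:67128791-67129190, chr15:67133744-67134143 and chr15:67151149-67151548, in the middle part of the gene, 26.1, 31.1 and 48.5 kb from its lower-coordinate end. In St3gal2 (chr8:110919743-110974058) they lay nearer one end, at chr8:110921565-110921964, chr8:110928968-110929367 and chr8:110930049-110930448, or 2.02, 9.42 and 10.5 kb from the lower-coordinate end. None of these 6 peaks was within 10 kb of another protein-coding gene.

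St3gal5, encoding the synthase of the ganglioside GM3 from which most other gangliosides are made, had its only peak at its start. The interval chr6:72097646-72098045 had its midpoint 237 bp after the annotated start, which lies inside the gene span chr6:72097552-72154571. From the lower-coordinate end of that span the midpoint was 0.293 kb away. The peak counted for St3gal3, whose enzyme sialylates galactose on glycoproteins, was of another kind: chr4:117928592-117928991 lay 3.36 kb beyond the 3′ end of St3gal3, inside Artn, and 206 kb from the start of St3gal3. It was 0.972 kb from an annotated start of Artn. St3gal4 and St3gal6, which encode further enzymes of this type with roles in selectin ligands, had no peak nearer than 189 and 146 kb. St6gal1 and St6gal2, which encode the enzymes that place sialic acid on N-glycans in the other common linkage, had none nearer than 368 and 494 kb.

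The St6galnac genes encode enzymes that add sialic acid to N-acetylgalactosamine, and St6galnac3 had 4 peaks, the most of any member. It is a long gene on the minus strand, chr3:153198274-153725133 (527 kb), and its peaks gathered at the 5′ part. The interval chr3:153733800-153734199 was 8.87 kb upstream of the start, chr3:153719639-153720038 was 5.29 kb downstream of it, and chr3:153691571-153691970 and chr3:153690012-153690411 were 33.4 and 34.9 kb downstream. The last 2 lay 1.56 kb apart, and positions alone cannot tell whether such neighbours are separate sites. St6galnac4, whose enzyme like that of St6galnac3 adds a further sialic acid to sialylated O-glycans, had 1 peak (chr2:32588537-32588936), 1.66 kb after its start and also within 10 kb of Pip5kl1.

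St6galnac5, which encodes a ganglioside sialyltransferase, had 1 peak at chr3:152979471-152979870, within the gene body at 2.54 kb from the higher-coordinate end, where the noncoding Gm46830 is annotated too. For St6galnac1, encoding the enzyme that makes the sialyl-Tn structure, the peak chr11:116782820-116783219 lay outside any annotated protein-coding gene, 7.51 kb above the higher-coordinate end. St6galnac2 and St6galnac6 lacked a peak in their windows, the nearest ones being 87.2 and 11.0 kb away. Of the St8sia genes, which encode enzymes that join sialic acids to each other, St8sia1 (the synthase of the ganglioside GD3) and St8sia2 (a polysialic acid synthase) had 1 peak each. The peak in St8sia1, chr6:142831166-142831565, was far from the nearest annotated start (133 kb), which lies inside the gene span. It was 158 kb from the 5′ end of the gene and 9.82 kb from the 3′ end. The peak in St8sia2, chr7:74001637-74002036, was 11.8 kb after the start. St8sia3, St8sia4, St8sia5 and St8sia6 had none, and their nearest peaks lay between 72.8 and 1280 kb away.

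**Figure D2:**
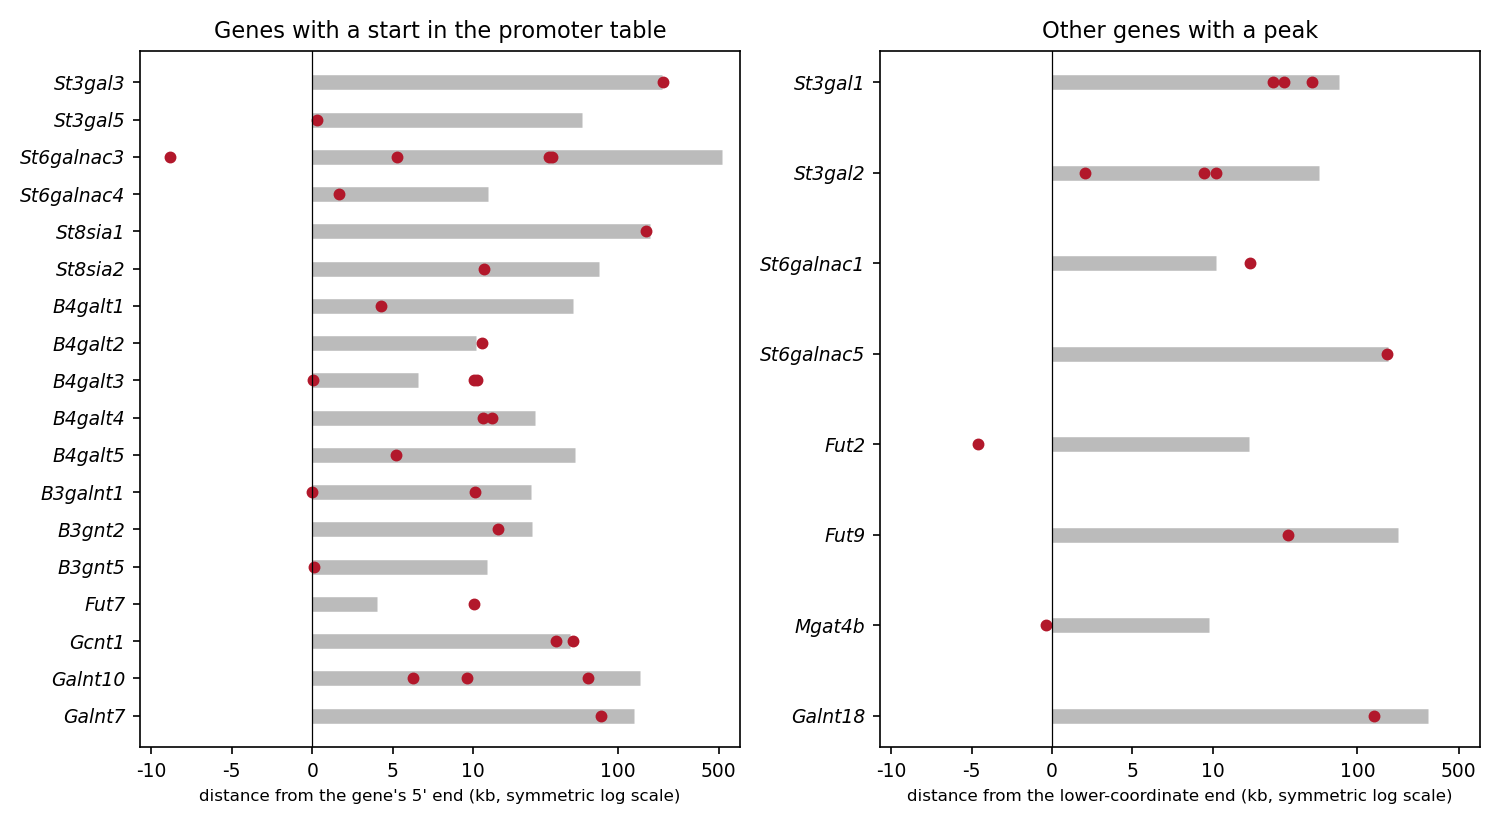
Peak midpoints (red points) along each member with a peak (grey bar, the gene body), by distance in kb from the 5′ end of the gene for the 18 genes with an annotated start in the promoter table (left) and from the lower-coordinate end for the other 8 (right), on a scale that is linear within 10 kb and logarithmic beyond. In the left panel 1 point each of St3gal5, B4galt3, B3galnt1 and B3gnt5 sits at or beside 0, and the points past the 3′ end are those of St3gal3, B4galt2 and Fut7, 2 of B4galt3 and 1 of Gcnt1.

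The B4galt genes encode the enzymes that add galactose in N-acetyllactosamine and in lactosylceramide, and B4galt1, B4galt3, B4galt4 and B4galt5 each had a peak inside the gene. B4galt1, whose product acts on most N-glycans, had its peak at chr4:40849528-40849927, 4.26 kb after the start. B4galt5, encoding a lactosylceramide synthase, had its peak at a like distance, 5.24 kb after the start (chr2:167343737-167344136). In B4galt4 there were 2 peaks 1.69 kb apart, chr16:38753775-38754174 and chr16:38755463-38755862, at 11.7 and 13.4 kb after the start and near the middle of the gene.

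For B4galt3 and B4galt2 the neighbours mattered to the count. The peak at the start of B4galt3 was also within 10 kb of Adamts4 and Ppox. Besides it, B4galt3 was credited with chr1:171280306-171280705 and chr1:171280816-171281215, which lay 3.61 and 4.12 kb past its 3′ end. Both were inside Ppox, a gene of haem synthesis, and 0.681 and 0.171 kb from an annotated start of Ppox. The single peak of B4galt2 (chr4:117871781-117872180) lay 1.02 kb past its 3′ end, inside Ccdc24 and 0.49 kb from an annotated start of Ccdc24. B4galt6, which encodes the other lactosylceramide synthase, had no peak within 538 kb. The nearest to B4galt7, encoding an enzyme of the proteoglycan linker, was at 26.3 kb.

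B3galnt1 had a second peak besides that at its start, chr3:69588363-69588762, inside the gene and 10.4 kb after the start. B3galnt2, whose product acts on dystroglycan, had the most distant nearest peak of all members, at 3950 kb. The B3galt genes B3galt1, B3galt2, B3galt4, B3galt5 and B3galt6 had no peak within 10 kb, and the nearest was 28.4 kb from B3galt4. The B4galnt genes, among them the ganglioside gene B4galnt1 and the Sda blood group gene B4galnt2, lacked a peak in their windows, and the nearest ones were 33.3 to 222 kb away. Of 9 B3gnt genes, B3gnt2 had a peak besides B3gnt5. B3gnt2 encodes the main enzyme that lengthens poly-N-acetyllactosamine chains, and its peak chr11:22845140-22845539 lay inside the gene, 14.4 kb after the start. The nearest peaks of B3gnt3, B3gnt6 and B3gnt7 were at 36.4, 28.5 and 37.0 kb, and those of B3gnt4, B3gnt8, B3gnt9 and B3gntl1 between 71.9 and 593 kb.

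Of the fucosyltransferase genes, Fut2, Fut7 and Fut9 had a peak, and only that of Fut9 was inside the gene. Fut9, encoding an enzyme that makes the Lewis x structure, spans chr4:25609333-25800003, and its peak chr4:25641973-25642372 lay 32.8 kb from its lower-coordinate end. The peak of Fut7, whose product makes selectin ligands on white cells, was chr2:25432367-25432766, inside Abca2 and 6.19 kb past the 3′ end of Fut7. That of Fut2, encoding an enzyme of the H antigen, was chr7:45643768-45644167, inside Mamstr and 4.62 kb below the lower-coordinate end of Fut2. The same peak was the nearest to Fut1, the other H antigen gene, at 22.9 kb. Fut10 and Fut11 had their nearest peaks at 35.4 and 33.2 kb, and Fut4 and Fut8, the latter encoding the enzyme of core fucose, at 345 and 415 kb.

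Of the genes for branching enzymes, 1 of 5 Gcnt genes (20%) and 1 of 11 Mgat genes had a peak, beside 16.6% of all protein-coding genes. Gcnt1, whose product starts the branched O-glycans of blood cells, had 2: chr19:17334854-17335253 inside the gene, 4.45 kb after the nearest of its 3 annotated starts, and chr19:17323363-17323762, 2.58 kb past its 3′ end. Gcnt2, which encodes the branching enzyme of the I blood group, had none within 57.1 kb, and Gcnt3, Gcnt4 and Gcnt7 had none within 10 kb. Among the 11 Mgat genes a peak was near Mgat4b alone, which encodes an N-glycan branching enzyme. It was chr11:50224776-50225175, 0.36 kb below the lower-coordinate end of a gene at chr11:50225335-50235103, and within the noncoding Gm36556. The peak was 0.212 kb from an annotated start of Gm36556, and no start of Mgat4b was in the promoter table. Mgat1, Mgat2, Mgat3 and Mgat5, which encode the other main branching steps, had their nearest peaks at 370, 55.7, 75.3 and 268 kb. Mgat4a had its nearest at 19.1 kb.

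The Galnt genes make up the largest subfamily, with the longest windows (4.05 Mb), and held 5 peaks. Galnt10 had 3 of them inside its 142 kb, at chr11:57651525-57651924, chr11:57654886-57655285 and chr11:57707340-57707739, or 6.28, 9.64 and 62.1 kb after its start. Galnt7 had 1 (chr8:57576234-57576633), deep in the gene at 76.6 kb after the start, and Galnt18 had 1 (chr7:111601399-111601798), 130 kb from its lower-coordinate end and 178 kb from the other. The other 16 genes had no peak within 10 kb. They include the widely expressed Galnt1 and Galnt2, with nearest peaks at 101 and 237 kb, and some of the longest genes of the group. Galntl6 (1140 kb), Galnt13 (682 kb) and Galnt17 (433 kb) had none within 196, 1260 and 168 kb.

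**Figure D3:**
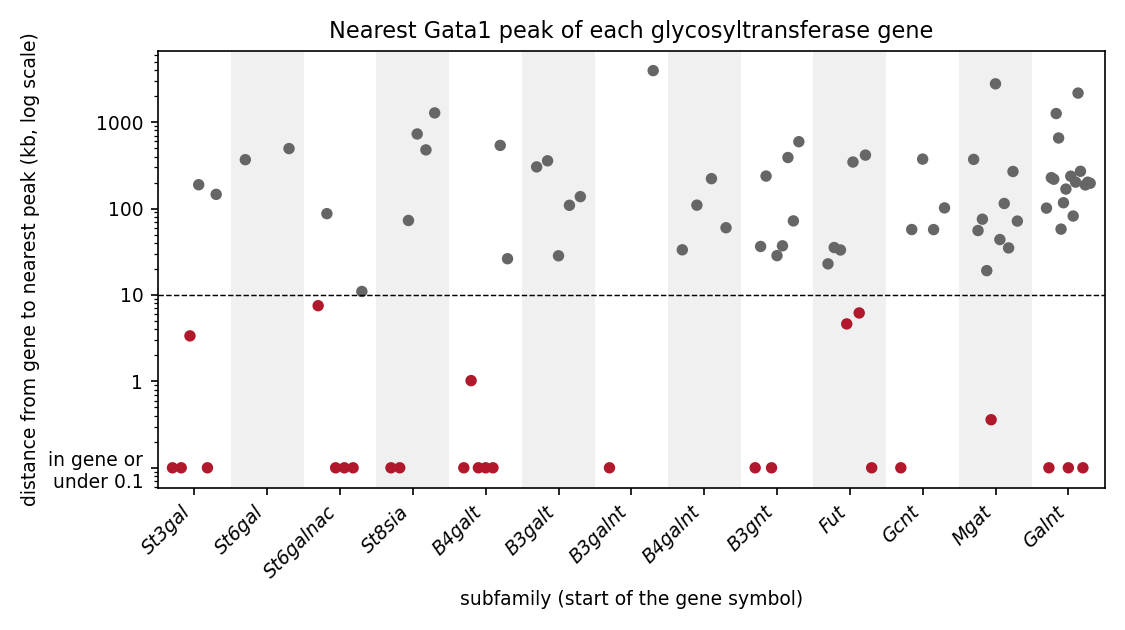
Distance in kb from each of the 90 genes to its nearest Gata1 peak midpoint (y axis, log scale, with genes that contain a peak or have one under 0.1 kb away drawn at the bottom), by subfamily (x axis), in red where it is within 10 kb (dashed line). The point just above the line is St6galnac6 at 11.0 kb, and the highest is B3galnt2 at 3950 kb.

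The peaks of these genes lay mostly inside them and more than 1 kb from their starts. Of the 40 peaks, 29 (72.5%) had their midpoint in the member itself, against 55.2% of the gene and peak pairs of all protein-coding genes, and 20 of the 26 genes had at least 1 such peak. The members are longer than most genes, and the 72.5 and 55.2% were not matched for gene length. For the 28 peaks of 18 genes with an annotated start, the median distance to the nearest start of the gene was 10.3 kb (8.04 kb over all protein-coding genes), and 4 (14.3%, against 21.5%) were within 1 kb of it. Of the 20 of these peaks that were inside the gene, 15 lay within 15 kb after a start, a count that was not made over all protein-coding genes. Exons and introns were not told apart here. The peaks of 32 of the 40 pairs were in the window of no other protein-coding gene. Over all protein-coding genes this held for 2371 of 4493 pairs, also not matched for gene length. In 6 of the 40 pairs of the members the peak was inside another protein-coding gene (15.0%, against 19.8% over all). That was so for every peak of 4 genes: St3gal3, B4galt2, Fut2 and Fut7. Which gene, if any, such a peak acts on was not tested.

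The ratio of the members' share to that of all protein-coding genes was 2.38 with gene bodies alone and fell to 1.35 with the widest window. The members were longer than most genes (median 43.1 kb against 17.2 kb), and these shares were not matched for gene length. With gene bodies alone 20 members (22.2%) had a peak, beside 9.34% of all protein-coding genes. With 1 kb at either end it was 21 (23.3%) beside 11.3%, and with 5 kb 24 (26.7%) beside 13.9%. With 20 kb it was 28 (31.1%) beside 21.4%, and with 50 kb 39 (43.3%) beside 32.0%. The members nearest the 10 kb limit on its inner side were Fut2 (4.62 kb), Fut7 (6.19 kb) and St6galnac1 (7.51 kb). On its outer side they were St6galnac6 (11.0 kb), Mgat4a (19.1 kb), Fut1 (22.9 kb) and B4galt7 (26.3 kb). In all, 13 members had their nearest peak between 10 and 50 kb away, and 40 had it over 100 kb away. These 2 counts were not made over all protein-coding genes. The median distance to the nearest peak was 71.8 kb for the members and 135 kb over all protein-coding genes, also not matched for gene length.

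**Figure D4:**
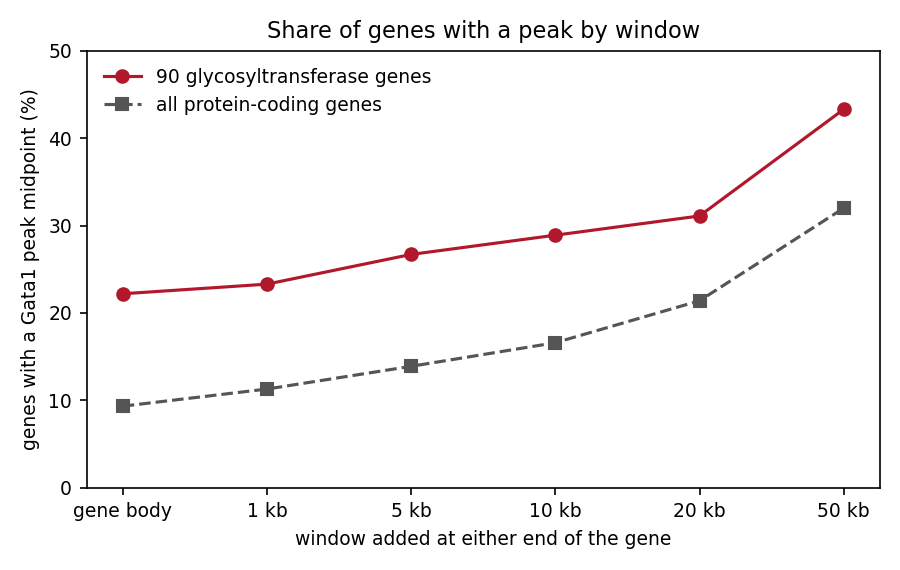
Percentage of genes with a Gata1 peak midpoint (y axis) in the gene body alone or with 1 to 50 kb added at either end (x axis), for the 90 glycosyltransferase genes (red circles) and all 21792 protein-coding genes (grey squares). The red line runs from 22.2 to 43.3% and the grey line from 9.34 to 32.0%.

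Other steps of glycan synthesis were counted the same way, beside the same 16.6% of all protein-coding genes. Of 28 genes for sugar nucleotides and their Golgi transporters, 7 (25.0%) had a peak. Of the 5 listed genes for sialic acid, Nans, the sialic acid synthase, had 1 peak at 3.51 kb, Nanp, the phosphatase of the next step, had 1 inside the gene, and Cmas, which makes CMP-sialic acid, had 2, the nearer at 1.45 kb. Gne, encoding the enzyme of the first steps, and Slc35a1, the CMP-sialic acid transporter gene, had none, with nearest peaks 133 and 468 kb away. The other genes of this list with a peak were Gmppa with 2, and Slc35a3, the Golgi transporter of UDP-N-acetylglucosamine, Galk2 and Gmds with 1 each. Of 36 other genes listed for glycosyltransferase steps, 7 (19.4%) had a peak, all with one inside the gene. They were Extl3 (3 peaks), Csgalnact1 and Pofut1 (2 each), and Ext1, Ggta1, Pofut2 and Eogt (1 each), which encode enzymes of heparan and chondroitin sulfate, of the alpha-galactosyl epitope and of sugars on Notch-type and thrombospondin-type repeats.

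Genes for the lipid-linked precursor and its transfer to protein had a peak in 6 of 24 (25.0%), with 1 each near Alg2, Alg9, Dad1, Dpagt1, Rpn1 and Tusc3. Genes for glycan trimming and removal had one in 4 of 17 (23.5%), namely the Golgi mannosidase gene Man1c1 with 3, the sialidase genes Neu3 and Neu4 with 1 each, and Hexa with 1. These shares lay between 19.4 and 25.0%, beside 28.9% of all 90 members and 22.9% of the 70 that are not sialyltransferases. The sialyltransferases were set apart after the values were seen. The Wilson intervals of the 4 lists were wide (such as 9.56 to 47.3% for trimming and removal), and each took in both 28.9% and 16.6%. With gene bodies alone the shares were 10.7% for sugar nucleotides and transporters and 19.4% for the other glycosyltransferase steps. They were 8.33% for the lipid-linked precursor and 17.6% for trimming and removal. Beside these were 22.2% of the members and 9.34% of all protein-coding genes, also not matched for gene length.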

How the data were processed

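The authors deposited 1 list of peak positions for the Gata1 library, with a chromosome, start and end and no score. Bowtie2 2.0.6, MACS2 2.0.10 and the build mm10 are named in the submitters' processing notes. Their settings, threshold and filters were not given in the sources used here. The width of 400 bp had been fixed before deposit. Libraries were size-selected for 150 to 400 bp, per the labels' protocols.

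Gene positions came from RefSeq GRCm38.p6, leaving out 340 entries that carry scaffold coordinates (autosomal or X positions under 3 Mb). Strand, starts and sequence came from the RefSeq promoter table, so for other genes only the lower- and higher-coordinate ends are named. An annotated start can lie inside the gene span, and a distance to a start is to the nearest annotated start of the gene. Positions are 1-based. The assignment of peaks to genes was tested on simulated data. Python 3.11.15, numpy 2.4.6, scipy 1.17.1, pandas 2.3.3 and matplotlib 3.10.9 were used.

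The members and lists were chosen with earlier results of these data known, so no test was made. Every member with a peak is named, and related genes with a peak are named up to 8 a list. The grouping of the sialyltransferases, the length classes and the other genes named were chosen after their values were seen. Alternatives were the window, any overlap, the nearest gene only, close peaks counted once and the membership rule.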

Additional observations from a re-analysis of the deposited data

How the results depend on the processing

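The number of genes with a peak stayed within 1.5 times the 26 reported under all 10 alternatives run for it, from 20 with gene bodies alone to 39 with 50 kb, and the number of peaks under 9 of 10, the exception being 66 peaks with 50 kb at either end, where the windows are longer. The share of all protein-coding genes with a peak also moved, from 9.34% with gene bodies alone to 32.0% with 50 kb. Giving each peak to its nearest protein-coding gene left 22 of the 90 genes, beside 12.3% of all protein-coding genes, and 34 peaks. Leaving out peaks inside another protein-coding gene, an alternative chosen after seeing the data, also left 22 and 34, beside 13.4% of all protein-coding genes. Counting midpoints within 1 kb as 1 left 26 and 39. The number of peaks inside members was 29 either way. By subfamily, 1 count of 13 moved by over 1.5 times with 1 kb (Fut, from 3 to 1) and 5 with 50 kb (among them B3gnt, from 2 to 5, and Mgat, from 1 to 4). A stricter peak threshold was not run because it needs a score. No paired analysis was possible because there is 1 ChIP library.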

Other observations

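Some members lie beside each other in the genome. St6galnac4 and St6galnac6 are 12 bp apart on chromosome 2, and the peak inside St6galnac4 was 11.0 kb from St6galnac6. B4galt2 and St3gal3 are 48.6 kb apart on chromosome 4 and had 1 peak each, both inside other genes that lie between or beside them (Ccdc24 and Artn). St6galnac5 and St6galnac3 are 216 kb apart on chromosome 3 and had 1 and 4 peaks. Galntl5 and Galnt11, 2.57 kb apart on chromosome 5, had none. Neighbouring members share their surroundings and are not independent counts.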
